A study of Arabidopsis thaliana with 16 samples.

Results

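IQD22 (locus AT4G23060) is an Arabidopsis thaliana gene of the IQ67-domain (IQD) family and is read on the ATH1 array by 1 probe set of the 22810 in the deposited table. The gene was picked by this probe set, with no cut on its values, while earlier results of these data were known. The study itself put IQD22 forward as a DELLA target on these same samples, so its rise with dexamethasone (DEX) in the rga line is described below as a measurement and is not independent evidence of that role. The 14 other probe sets that carry the symbol of an IQD gene serve as the family background, out of 33 IQD genes named in the RefSeq table, IQD22 included.

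IQD proteins carry the IQ67 domain, an array of short motifs that bind calmodulin, the calcium sensor protein. Members studied in Arabidopsis sit on microtubules or at membranes and are linked to cell shape and calcium signalling. DELLA proteins are nuclear repressors of gibberellin signalling. Gibberellin bound to its GID1 receptor leads the F-box protein SLY1 to DELLA proteins, which are then degraded. The rga-delta17 form lacks the DELLA motif, so gibberellin does not remove it.

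The arrays measured shoots, cut with a razor blade, of seedlings aged 8 days in the Landsberg erecta (Ler) ecotype, and all of them had been sprayed with 2 µM gibberellin GA4 16 h before the treatment. The groups were 3 arrays of the line carrying DEX-inducible rga-delta17 (the rga line) 2 h after GA4 plus 10 µM DEX and 3 of that line 2 h after 2 µM GA4 alone (mock). There were 3 of each at 4 h, and, for a line with the same inducible construct and an empty cassette (the vector line), 2 arrays with DEX and 2 mock arrays at 4 h. Each transgene is represented by 1 line, the labels give no promoter for the construct, no DEX-free solvent control beyond GA4 is described, and no untransformed plants are among the 16 arrays. The labels call the replicates biological.

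Signals are MAS5 intensities on a linear scale, and 1 limma fit over all 16 arrays was used, a probe set being called where its p, adjusted by Benjamini-Hochberg over the 17059 tested, was below 0.05. The 2 vector DEX arrays stood apart, with correlations of 0.789 to 0.885 to the other 14 arrays, which correlated at 0.916 to 0.975 among themselves. The comparisons within the rga line do not use them, other than through the shared estimate of the spread and 2 steps made over all 16 arrays. These steps are the lower limit set for signals and the choice of the probe sets tested. Of the green shoot markers 1 of 9 had a named probe set: RCA, the rubisco activase gene, read 16738 to 23392 on all arrays. Of the root markers 3 of 9 had one: PYK10 read 5464 to 8100, EXPA7 22.1 to 183 and EXPA18 50.5 to 198. None of these 4 was called for DEX, the smallest adjusted p in limma being 0.102, for EXPA18 in the vector line. Between the lines, EXPA7 was called higher in the rga line at 4 h both with DEX (1.68) and in mock (1.58), and EXPA18 in mock (0.99). The part of tissue makeup in the differences between lines was not tested. In whole shoots, fewer cells that express a gene and less RNA per cell cannot be told apart.

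IQD22 rose with DEX in all 3 places where it was given, the rga line at 2 h and 4 h and the vector line at 4 h, and the rise was largest in the vector line, which carries no rga-delta17. At 2 h the IQD22 signal was 790, 548 and 751 on the DEX arrays of the rga line, against 214, 259 and 219 on its mock arrays. At 4 h it was 526, 472 and 590 with DEX, against 182, 254 and 211 in mock. In the vector line it was 770 and 948 with DEX, against 184 and 191 in mock. Every DEX array lay above every mock array of all groups: the lowest DEX signal, 472, was 1.82 times the highest mock signal, 259. The probe set stood between the 71.8th and the 84.2nd percentile of its own array with DEX and between the 49.3rd and the 58.5th in mock, a ranking that does not depend on how the arrays were scaled. Signals without overlap are common in these data. DEX arrays lay entirely above mock arrays for 9.43% of the probe sets at 2 h in the rga line, 10.1% at 4 h and 30.0% in the vector line. The share with every DEX array above every mock array of all groups was not counted.

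**Figure D1:**
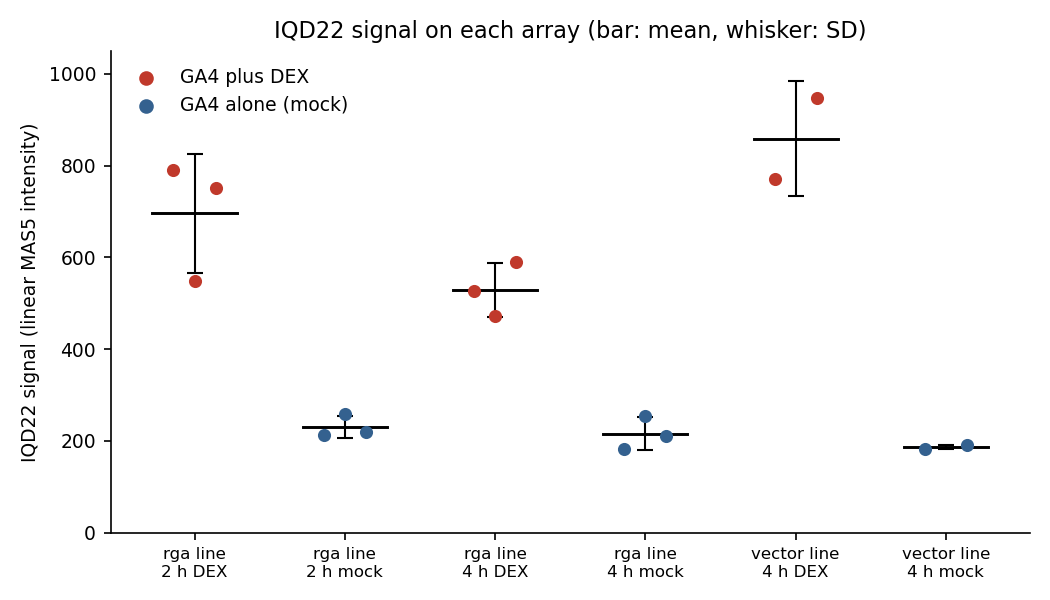
IQD22 signal (linear MAS5 intensity, y axis) on each of the 16 arrays (points), by line, time and treatment, with the group mean (bar) and SD (whisker). All 8 DEX arrays lie above all 8 mock arrays, and the highest 2-array mean is that of the vector line with DEX, 859.

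The group means ordered as 859 ± 126 in the vector line with DEX at 4 h (SD, n = 2), 696 ± 130 in the rga line with DEX at 2 h (n = 3), 529 ± 59.0 in the rga line with DEX at 4 h (n = 3), 231 ± 24.7 in rga mock at 2 h (n = 3), 215 ± 36.0 in rga mock at 4 h (n = 3) and 187 ± 5.06 in vector mock at 4 h (n = 2). The ranges of the highest and second highest groups overlapped, at 770 to 948 and 548 to 790, and so did those of the rga line with DEX at 2 h and at 4 h (472 to 590). The vector DEX arrays lay wholly above the rga DEX arrays at 4 h. Among the mock groups, rga mock at 4 h (182 to 254) overlapped the others, whereas rga mock at 2 h (214 to 259) lay above vector mock (184 to 191). How many probe sets showed that separation was not counted. No mock array reached any DEX array. IQD22 was an ordinary probe set in its spread: its residual SD within groups was 0.21 on the log2 scale, equal to the median of 0.21 over all probe sets tested. Its mean log2 signal was higher than that of 56.4% of them.

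In limma the 2 h DEX effect in the rga line was 1.58 ± 0.16 on the log2 scale (SE; 2.99-fold, 95% interval 2.38 to 3.77, adjusted p = 3.82e-06), where 3.02% of the probe sets tested were called higher and the median log2 change was -0.01. Among the 515 called higher IQD22 was the 91st by size. At 4 h the effect was 1.304 ± 0.16 (2.47-fold, interval 1.96 to 3.11, adjusted p = 2.99e-05), the 140th of 615 called higher, which were 3.61% of the probe sets tested. Averaged over both times it was 1.44 ± 0.11 (adjusted p = 5.53e-08), where 5.69% were called higher. An exact two-sided permutation test of this mean difference, with DEX labels exchanged within each time, gave p = 0.005, the smallest that its 400 arrangements allow. Within 1 time, 3 arrays against 3 cannot go below 0.1 by permutation. With any single rga array left out, the rise stayed between 1.48 and 1.75 at 2 h and between 1.19 and 1.43 at 4 h, and remained called in all 12 of these fits.

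The vector line was the study's control for the effects of DEX and of the construct itself. There the IQD22 difference was 2.19 ± 0.19 on the log2 scale (4.57-fold, 95% interval 3.44 to 6.05, adjusted p = 4.01e-08), higher on 2 of 2 DEX arrays. Of all probe sets tested 47.3% were called in this comparison, 17.7% higher, and IQD22 ranked 468th of the 3016 called higher. The split of the calls depended on the scaling: 37.4% of them were higher as scaled by the authors, 43.6% after quantile normalization and 58.1% after median centring. The median log2 change of all probe sets was -0.15 with the authors' scaling, -0.02 with quantile normalization and 0.12 with median centring of the arrays. IQD22's change was 2.19, 2.103 and 2.46 under these scalings, so it lay more than 2 above the median under each.

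The 4 h DEX effect of IQD22 was smaller in the rga line than in the vector line, by 0.89 ± 0.25 on the log2 scale (rga minus vector -0.89, 95% interval -1.41 to -0.36, adjusted p = 0.0111). In this test of the difference 10.5% of all probe sets were called lower in the rga line. Those called higher were 65.5% of all calls with the authors' scaling and 42.4% after median centring. The difference was -0.75 after quantile normalization (adjusted p = 0.0418) and -1.14 after median centring (adjusted p = 0.00260). It was no longer called without vector DEX replicate 2, the brighter of that pair (-0.74, adjusted p = 0.0736). The lines did not separate in mock at 4 h (rga over vector 0.19 ± 0.18, adjusted p = 0.479, interval -0.18 to 0.56, with 17.6% of all probe sets called). With DEX, the rga line was below the vector line (-0.70 ± 0.18, adjusted p = 0.00271, with 17.7% called lower), and each vector DEX array, at 770 and 948, was above the highest rga array, at 590, a separation that 23.9% of the probe sets showed. Of the calls between the lines, 69.6% were higher in the rga line with DEX and 65.7% in mock, against 39.5% and 35.4% after median centring. This difference of IQD22 between the lines with DEX was also no longer called without vector DEX replicate 2 (-0.55). The vector line was not sampled at 2 h, so the 2 h rise in the rga line has no vector counterpart.

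**Figure D2:**
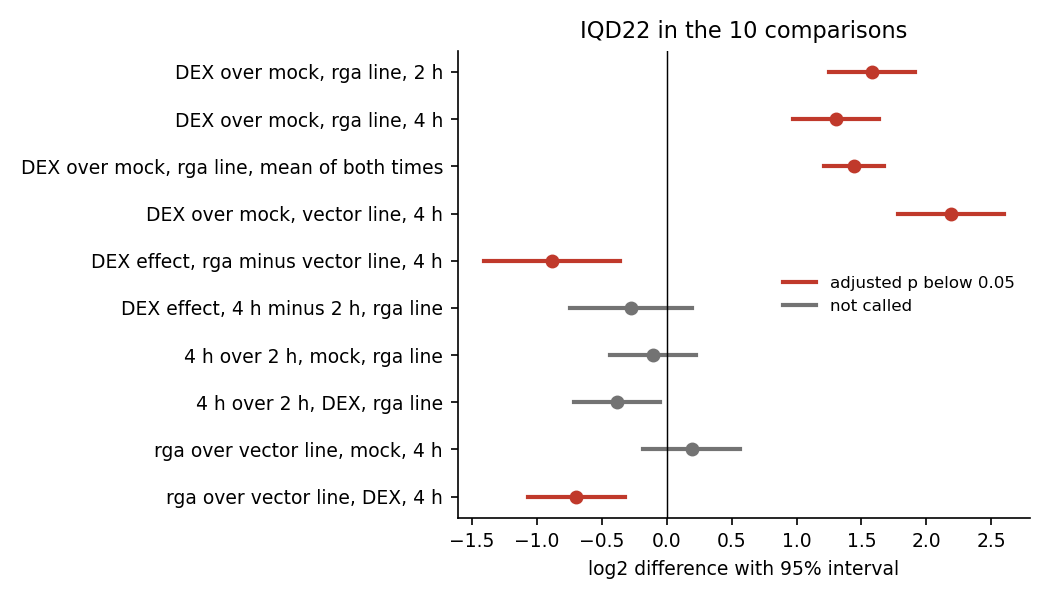
Log2 differences of IQD22 (x axis) with 95% intervals (lines) in the 10 comparisons of the limma fit, in red where the adjusted p was below 0.05. The vector line's DEX effect, 2.19, is the farthest to the right, and the 3 comparisons between times and the mock comparison between lines (grey) are not called.

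IQD22 was not called in any comparison between the times after adjustment, although its interval under DEX lay below 0. Under DEX the 4 h signal was below the 2 h signal by 0.38 ± 0.16 on the log2 scale (4 h over 2 h -0.38, interval -0.72 to -0.05), which had an unadjusted p of 0.0259 in limma and an adjusted p of 0.232 over all probe sets, of which 4.15% were called. In mock the difference was -0.11 ± 0.16 (adjusted p = 0.910, 1.54% called). The DEX effects at the 2 times differed by -0.28 ± 0.22 (4 h minus 2 h, adjusted p = 0.967, interval -0.75 to 0.19, 0.0469% called). These intervals do not show that the effect was equal at both times.

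Of the 15 IQD probe sets, 10 passed the filter on dim signals and were tested. The 5 others (IQD16, IQD18, IQD27, iqd15 and iqd33) were left out by that filter. It used the mean log2 signal over all 16 arrays, so a gene bright in 1 group only could be left out. The brightest mean among these 5 was 140 ± 39.1 for IQD18 in the vector line with DEX, against 37.2 ± 8.51 in vector mock (n = 2 each). In the rga line 2 of the 10 tested rose with DEX at 2 h and at 4 h, IQD22 and IQD30, none fell and 8 were not called by limma, with no unadjusted p below 0.05 among the 8, beside 4.14% and 5.16% of all probe sets called in either direction. The 8 had log2 changes of -0.27 (IQD28) to 0.23 (IQD24) at 2 h and -0.19 (IQD26) to 0.11 (IQD23) at 4 h. The median over the 10 was -0.0042 at 2 h and 0.02 at 4 h, against -0.01 and -0.02 over all probe sets.

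IQD30, another calmodulin-binding IQD gene, was the IQD gene whose signal followed that of IQD22 most closely, with a Pearson r of 0.91 over the 16 arrays and 0.90 over the 12 rga arrays. Its signal at 2 h was 882, 775 and 707 with DEX in the rga line, against 352, 444 and 365 in mock. At 4 h it was 749, 592 and 749 with DEX, against 374, 259 and 423 in mock. In the vector line it was 1548 and 1650 with DEX, against 330 and 379 in mock. No DEX array overlapped a mock array, as for IQD22, a separation whose share over all probe sets was not counted. The log2 changes were 1.03 ± 0.16 (adjusted p = 0.000536), 1.01 ± 0.16 (adjusted p = 0.000571) and 2.18 ± 0.20 (adjusted p = 5.12e-08) in this order, and the 4 h effect was smaller in the rga line than in the vector line (-1.17 ± 0.25, adjusted p = 0.00165).

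In the vector line 7 of the 10 tested IQD genes were called, where 47.3% of all probe sets were: IQD22 and IQD30 higher, and IQD19, iqd21, IQD24, IQD26 and IQD31 lower, where 29.6% of all probe sets were. The largest fall was that of iqd21, which read 121 and 86.7 with DEX, against 463 and 468 in vector mock, a log2 change of -2.19 ± 0.17. In the rga line iqd21 read 335 to 413 on all 6 DEX arrays, against 375 to 468 on the 6 mock arrays, with overlap. IQD26 changed by -1.85 ± 0.29, IQD19 by -1.68 ± 0.26, IQD24 by -1.05 ± 0.17 and IQD31 by -0.41 ± 0.10 in the vector line. IQD31 lost that call after median centring (-0.14, adjusted p = 0.332). The remaining 3, IQD23, IQD28 and iqd32, were not called there, with changes of 0.30, -0.38 and -0.01. With the authors' scaling IQD22 and IQD30 were the only tested IQD genes called higher with DEX in either line. After median centring IQD23 was also called higher in the vector line (0.57, adjusted p = 0.0191). The median log2 change of the 10 in the vector line was -0.40, against -0.15 over all probe sets.

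**Figure D3:**
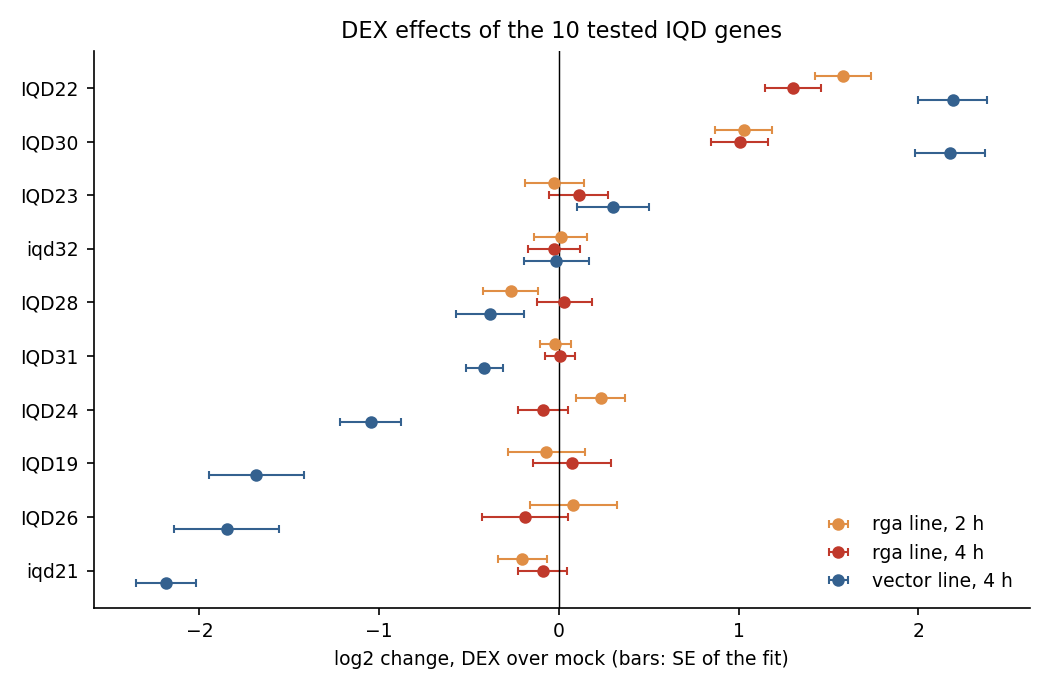
Log2 changes, DEX over mock (x axis), of the 10 tested IQD genes (rows) in the rga line at 2 h and 4 h and in the vector line at 4 h, with the SE of the fit as bars. IQD22 and IQD30 lie to the right of 0 in all 3 comparisons, and the 5 genes called lower in the vector line lie farthest to the left there, none of them having a call in the rga line.

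**Figure D4:**
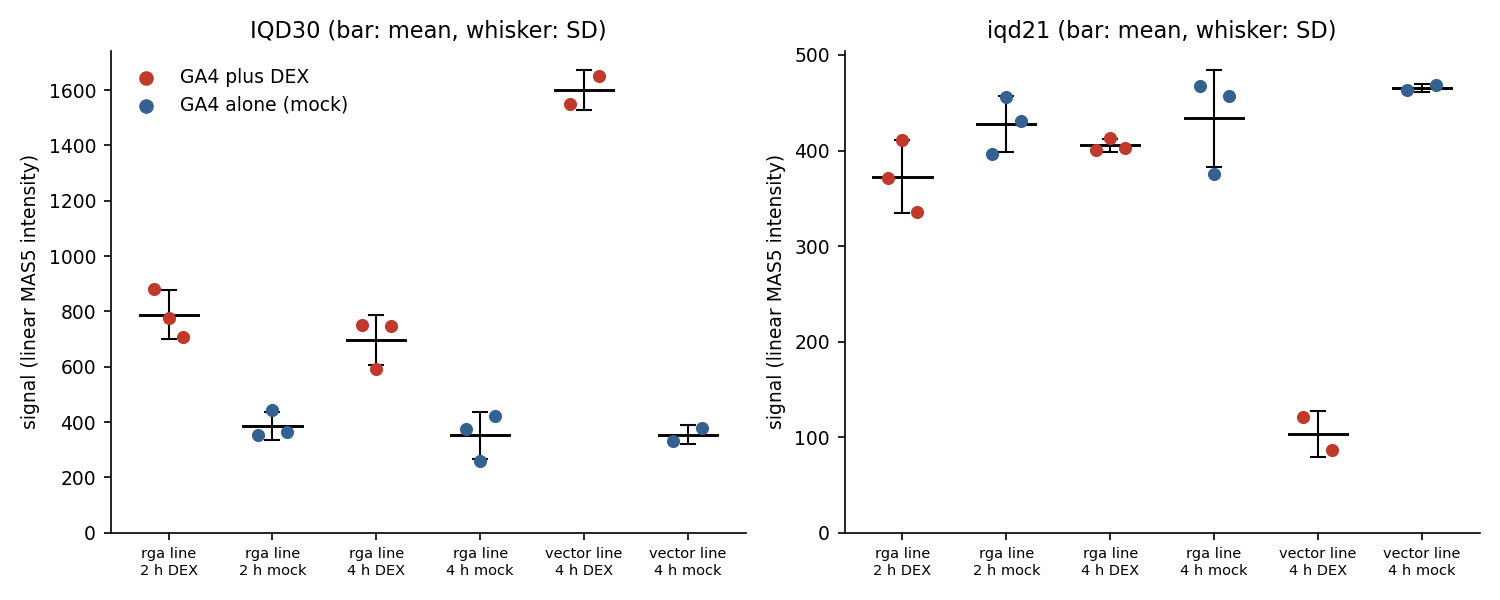
Signals (linear MAS5 intensity, y axes) of IQD30 and iqd21 on each of the 16 arrays (points), with group means (bars) and SDs (whiskers). IQD30 is higher on all 8 DEX arrays, most on the vector line's (1548 and 1650), whereas iqd21 falls to 121 and 86.7 on the vector DEX arrays and stays at 335 to 413 on the rga DEX arrays.

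The calmodulin signalling lists were largely out of reach, because no calmodulin (CAM), CAMTA, IQM, kinesin light chain-related or calcium-dependent protein kinase gene of those lists had a named probe set. Of 8 calmodulin-like (CML) probe sets, genes of calcium sensor proteins, 7 were tested. In the rga line CML41 was called lower at 2 h (-0.71 ± 0.19, adjusted p = 0.0455), where 1.12% of all probe sets were called lower. That call did not survive the removal of any one of 5 of the 6 arrays. At 4 h limma called none of the 7, where 5.16% of all probe sets were called, and 1 had an unadjusted p below 0.05. The 8th, AT1G76640, was left out by the filter on the mean log2 signal over all arrays. It read 7.93, 12.1 and 12.3 with DEX at 2 h in the rga line, against 56.9, 67.4 and 85.6 in mock. At 4 h it read 2.92 to 4.55 with DEX, against 2.17 to 4.80 in mock, so the 2 h separation was not seen there. Calls in the vector line numbered 5 of the 7, beside 47.3% of all probe sets. CML37 rose to 756 ± 77.3, against 32.6 ± 15.0 in mock, CML42 to 4015 ± 573, against 983 ± 72.4, and CML41 fell to 84.1 ± 7.32, against 489 ± 39.8 (n = 2 each). CML23 (-3.13 ± 0.44) and CML38 (-1.55 ± 0.48) were also lower, CML38 not after quantile normalization (-1.04, adjusted p = 0.0801). With single vector arrays left out, the CML38 change ran from -2.23 to -0.87. For the rga line the median log2 change of the 7 was 0.03 at 2 h and -0.18 at 4 h. For the vector line it was -0.13.

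Of 11 other genes taken from those that the study put forward as DELLA targets, 5 had a named probe set and were tested. Set beside these 5, IQD22 had the highest DEX effect in the vector line. The 4 h effects were 1.304 (rga line) and 2.19 (vector line) for IQD22, 1.91 and 1.18 for the receptor gene GID1B, and 0.69 and -1.08 for the receptor gene GID1A. They were 0.74 and -0.68 for XERICO, a RING gene linked to abscisic acid, 2.12 and -0.72 for AT5G50915, and 0.87 and -1.35 for AT2G31730. The tests of the difference between the lines were called for all 6, where 30.5% of all probe sets were, the call for GID1B being lost after median centring (0.47, adjusted p = 0.198). The vector line falls of XERICO and AT5G50915 were not called after quantile normalization (-0.34 and -0.33) or median centring (-0.41 and -0.45). With single vector arrays left out, they ran from -0.82 to -0.55 for XERICO and from -1.04 to -0.39 for AT5G50915. IQD22 was the one of them whose effect was lower in the rga line, and the other 5 were higher there, as were 20.0% of all probe sets. These 5 were put forward by the study that made these arrays. Their higher effect in the rga line is therefore not independent evidence of that role.

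The named genes whose log2 signal ran most like that of IQD22 over the 16 arrays, out of 9527 named probe sets, were AT5G18590 (r = 0.98), AT1G64405 (0.97), AT3G02070, AT1G31550 and AT1G32780 (0.96 each), AT4G30940, AT4G40050 and AT1G05790 (0.95 each), TSC10A, a gene of sphingoid base synthesis, and AT3G46960 (0.94 each). These arrays share the DEX groups and the vector DEX arrays, so r describes the group pattern and has no test, and 46 named probe sets had an r above 0.9. In mock, AT1G64405 was under the lower limit set for signals on 3 rga arrays at 2 h and 2 at 4 h. The same held for 2 vector mock arrays, so its r rests partly on values set to that limit. AT5G18590 read 1030 in the rga line with DEX at 2 h, against 368 in mock, and 853 at 4 h, against 418 in mock. In the vector line it read 1154 with DEX, against 349 in mock (group means). It thus had the same order of the DEX groups as IQD22. Over the 12 rga arrays alone the highest r were those of AT5G47060, AT2G36220 and AT5G60160 (0.98 each) and AT5G18590 (0.97), and 3 of the 10 leading genes were shared with the list over all 16. AT5G47060, first over the rga arrays, had an r of 0.74 over the 16, and its vector line mean was 893 with DEX, against 592 in mock. MYBC1, a MYB transcription factor gene that was 7th over the rga arrays (r = 0.96), had 0.88 over all 16.

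Of the 4 genes on either side of IQD22 in the RefSeq table, 5 had a named probe set and 3 were tested. RBL7, the next gene, overlaps the annotated end of IQD22 and has no named probe set here, and whether the IQD22 probe set also reads it was not tested. None of the 3 tested was called by limma with DEX at 2 h or 4 h in the rga line, beside 4.14% and 5.16% of all probe sets, and 1 had an unadjusted p below 0.05 at each time. There AT4G23040, 3 genes away, changed by 0.04 and 0.20, AT4G23050, 2 genes away, by 0.09 and 0.15, and AT4G23030, 4 genes away, by 1.24 ± 0.51 (adjusted p = 0.249) and 1.305 ± 0.51 (adjusted p = 0.182). Averaged over both times AT4G23030 was called (1.27, adjusted p = 0.0301). In the vector line AT4G23030 rose to 708 ± 6.39, against 59.9 ± 14.8 in mock (n = 2 each), and AT4G23040 rose by 0.92 ± 0.24, while AT4G23050 was not called (-0.04 ± 0.20). Of all probe sets 17.7% were called higher there.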

How the data were processed

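Total RNA of shoots was hybridised to 16 single-colour Affymetrix ATH1 arrays, 1 per sample. The deposited values are signal intensities on a linear scale, made by the authors with MAS5 per the submitters' processing notes; which MAS5 version was run is not given in the sources used here, nor are a build or detection calls. Each array's mean after trimming 2% at each end was 500.05, so the authors had scaled arrays to 1 target, and this was kept. Signals under the 10th percentile of all values (7.95) were set to it, log2 was taken, 64 control probe sets were left out, and the 25% with the lowest mean log2 were dropped, leaving 17059. Gene names came from the platform table, updated through RefSeq (TAIR10.1); 13513 probe sets had 1 gene. limma 3.58.1 (R 4.3.3) fitted 6 group means with 10 residual degrees of freedom and a mean-variance trend; the fit and the permutation test were tested on simulated data. The number of arrays, 3 per rga group and 2 per vector group, limits the precision. IQD22, all IQD probe sets, the calmodulin lists, the study's targets and the 10 genes most alike by Pearson r were named; 4 neighbours on either side were added after the values were seen. Members and lists were chosen with earlier results of these data known. Same-numbered DEX and mock arrays deviated together by r = -0.08 to 0.26, which does not show whether the numbers pair them. The induction of the transgene was not analysed here, and no sequence is printed.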

Additional observations from a re-analysis of the deposited data

Results flagged for a closer look

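The DEX effect at 4 h differed between the lines for 28 of the 42 named genes tested, by the test of the difference itself in limma (rga minus vector, log2), beside 30.5% of all probe sets. The 42 include genes picked for their likeness to IQD22 on these arrays and targets put forward by the study itself. The count therefore does not compare with that share as an unselected set would. IQD22 differed by -0.89 ± 0.25 (adjusted p = 0.0111), with all 3 rga DEX arrays below both vector DEX arrays in signal. IQD30 differed by -1.17. The 5 other IQD genes with a call differed the other way, iqd21 by 2.097, IQD19 by 1.76, IQD26 by 1.66, IQD24 by 0.96 and IQD31 by 0.42. The remaining 3 tested were not called, IQD28 at 0.41, IQD23 at -0.19 and iqd32 at -0.01. IQD24 and IQD26 lost the call after quantile normalization (0.61 and 1.09), and IQD31 after median centring (0.16) and when any one of 4 of the 10 arrays was removed.

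Among calmodulin-like genes CML37 differed by -4.93, CML42 by -2.17, CML41 by 2.34 and CML23 by 2.13, the last not called after quantile normalization (1.59). Among the study's other DELLA targets, AT5G50915 differed by 2.83, AT2G31730 by 2.22, GID1A by 1.76, XERICO by 1.42 and GID1B by 0.72. GID1B lost the call in 5 of 10 other settings, median centring (0.47) among them, and when any one of 8 of the 10 arrays was removed. The neighbour AT4G23030 differed by -2.28 (adjusted p = 0.0389), a call lost in 3 of 9 other settings, quantile normalization (-1.82) among them, and when any one of 8 of the 10 was removed.

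Of the genes named for a signal like that of IQD22, AT3G02070 differed by -1.81, AT1G31550 by -1.71, AT3G46960 by -1.65, AT5G60160 by -1.62, AT4G30940 by -1.34, AT1G33590 by -1.102, AT1G05790 by -0.81, AT5G18590 by -0.69 and AT4G23820 by -0.69. MYBC1 differed by 3.78 and AT5G47060 by 0.66. These genes were chosen by their likeness to IQD22 on the same arrays, so their direction is no separate result. The MYBC1 difference rests on mock signals near the lower limit. At 4 h its mock mean was 7.66 in the rga line, with 2 arrays under that limit, against 99.5 in the vector line. With DEX at 4 h MYBC1 was not called between the lines (rga over vector 0.36, adjusted p = 0.63 in limma). AT1G05790 lost the call after quantile normalization (-0.67) and when any one of 3 of the 10 arrays was removed, and AT5G47060 after median centring (0.40) and without vector mock replicate 2 (0.60).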

How the results depend on the processing

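The 11 IQD22 results kept their direction and their side of the threshold in all 111 values under other scalings, floors, filters, variance models, array sets and the replicate block. With the replicate block the vector line effect was 2.19 and the difference between the lines -0.89 (adjusted p = 0.0189 in limma). The labels do not say what same-numbered arrays share. Some arrays, but not all, deviated most like the array of their own number, and the block changed none of the IQD22 calls. With single arrays left out, the difference between the lines ran from -1.04 to -0.74 and the rga over vector difference with DEX from -0.85 to -0.55, both losing their call without vector DEX replicate 2. The uncalled mock difference between times ran from -0.23 to 0.0089, the higher value being that without rga mock 4h replicate 1.

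Of the list counts, the 1 calmodulin-like call at 2 h became 0 in limma with no filter, no trend or the replicate block (1, 1 and 2 genes at an unadjusted p below 0.05). With the lowest 50% left out, the 5 vector line calls and the 4 differences between the lines each became 2, as fewer genes were tested. Of 1791 values of other named genes, 1731 kept their call and 60, of 13 results, lost it. With 2 vector arrays per treatment, each difference between lines rests on few arrays.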
